A study of Mus musculus with 2 samples.

Results

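Eph receptors and their ephrin ligands were examined in GIF-5, an epithelial line from mouse stomach. The genes were taken from a fixed list of 10 symbols, 6 receptors (Epha1, Epha2, Epha4, Ephb2, Ephb3 and Ephb4) and 4 ephrins (Efna1, Efna5, Efnb1 and Efnb2), and a probe belonged to a gene where the array files gave it that symbol. All 10 genes had a probe, 15 probes in all, among 27670 named genes on the array. Of these, 9 genes with 13 probes gave a signal that could be tested, among 15244 tested genes, and Ephb2 did not. RNA of CD133-positive cells, labelled with Cy3, was hybridised against RNA of CD133-negative cells, labelled with Cy5, on each of 2 arrays. Both fractions came from the same line, of genotype Runx3-/-p53-/-, had been grown in DMEM with serum, and were sorted with a phycoerythrin-coupled antibody to CD133. The labels call the arrays biological replicates without naming separate cultures or sorts, so p-values measure only the spread between these 2 arrays, which may be technical.

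Eph receptors are the largest family of receptor tyrosine kinases, and ephrins are their membrane-bound ligands on neighbouring cells. A-type ephrins are held by a lipid anchor and mostly bind EphA receptors, while B-type ephrins cross the membrane and mostly bind EphB receptors; EphA4 binds both types. Signals pass into the receptor-bearing cell (forward) and into the ephrin-bearing cell (reverse), and they guide repulsion, adhesion and the sorting of cells into separate territories. In the intestine, EphB2 and EphB3 are known as targets of Wnt signalling that place cells along the crypt, with ephrin-B1 and ephrin-B2 on the more differentiated cells.

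Upstream sequences are shown for 4 receptors, the 2 whose ratios lay highest and the 2 whose ratios lay lowest, so that their starts can be set side by side. Each is the 250 bases before the gene's start, written 5′ to 3′ on the gene's strand, from RefSeq on GRCm38.p6, at chr6:42373269-42373518 (minus strand) for Epha1, chr16:21204545-21204794 (plus strand) for Ephb3, chr1:77515089-77515338 (minus strand) for Epha4 and chr4:141300971-141301220 (plus strand) for Epha2. Capitals mark matches, on either strand, to GGGCGG (the Sp1 box), CTTTGA (the core of TCF and LEF sites), CACCTG (the E-box of Snail factors) or TGANTCA (AP-1), and no matches overlapped.
Epha1: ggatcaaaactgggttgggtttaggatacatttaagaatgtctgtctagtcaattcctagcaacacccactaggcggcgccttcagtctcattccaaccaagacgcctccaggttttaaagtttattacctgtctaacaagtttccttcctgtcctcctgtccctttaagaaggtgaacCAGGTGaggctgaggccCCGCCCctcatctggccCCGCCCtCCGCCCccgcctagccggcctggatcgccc
Ephb3: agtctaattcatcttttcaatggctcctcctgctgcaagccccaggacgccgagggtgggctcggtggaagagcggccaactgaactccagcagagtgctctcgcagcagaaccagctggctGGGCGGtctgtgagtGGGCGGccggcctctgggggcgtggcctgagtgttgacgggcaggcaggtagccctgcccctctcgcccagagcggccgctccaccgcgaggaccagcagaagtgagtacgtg
Epha4: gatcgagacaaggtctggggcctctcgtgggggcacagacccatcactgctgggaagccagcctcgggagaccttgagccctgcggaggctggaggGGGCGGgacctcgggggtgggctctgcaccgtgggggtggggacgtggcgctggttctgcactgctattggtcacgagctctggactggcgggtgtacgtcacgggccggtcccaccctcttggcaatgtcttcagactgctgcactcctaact
Epha2: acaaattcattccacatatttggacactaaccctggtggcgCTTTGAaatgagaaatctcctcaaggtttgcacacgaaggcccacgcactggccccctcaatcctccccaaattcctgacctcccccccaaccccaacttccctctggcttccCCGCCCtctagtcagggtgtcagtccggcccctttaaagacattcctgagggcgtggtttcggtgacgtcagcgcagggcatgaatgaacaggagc
RefSeq gave 11 such windows for the 10 genes, with 2 for Efna1. The Sp1 box lay in 9 of the 11, against 32.7% of 32851 windows of all genes, and the windows had a G and C content of 54.4% to 74.8%, against a median of 52.4% over all windows. GGGCGG is made only of G and C, and the part that base composition has in its share was not tested. CTTTGA lay in 1 of the 11 (Epha2), against 13.8% of all windows, and CACCTG lay in 3 (Epha1, Ephb2 and Efnb2), against 17.2%. TGANTCA lay in 0 of the 11, against 6.7%, which says only that these letters are not in these windows.

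Values below are normalised spot intensities and log2 ratios, with CD133-positive over CD133-negative cells, and with the mean of both arrays ± the moderated SE (n = 2). Intensities are compared only within a probe. They are summed over probes only for the marker lists, where the brightest probes weigh most. Fractions are said not to overlap where both values of a fraction lie above both values of the other, regardless of the array. The share of all tested genes without overlap was not counted, so this only describes the values. The paired comparison is the ratio on each array. Since Cy3 held CD133-positive RNA on both arrays, a dye effect on a probe cannot be told apart from the fraction. Fewer cells that express a gene and less RNA per cell cannot be told apart either. The members and the gene lists below were chosen with earlier results of these data known. Their counts beside the shares of all tested genes therefore only describe these genes. Prom1, which encodes CD133, had 2 probes. The brighter one had 700.1 and 620.4 in CD133-positive cells, against 49.4 and 46.7 in CD133-negative cells, where neither probe stood well above background. By this probe Prom1 was at least 11.96-fold higher in CD133-positive cells, and by the dimmer one at least 8-fold. This checks the labels of the sort and is no finding.

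None of the 9 tested genes passed limma's test at an adjusted p under 0.05 over all 15244 genes, a threshold that 1.69% of all tested genes passed (1.41% higher and 0.276% lower). At an unadjusted p under 0.05 there were 6, against 27.9% of all tested genes, 2 with a positive and 4 with a negative ratio, against 11.9% and 16% of all tested genes. The ratio had the same sign on both arrays for 7 of the 9, against 72.2% of all tested genes. It was above 0 on both arrays for Epha1, Ephb3 and Ephb4 (32.6% of all genes) and below 0 on both for Epha2, Epha4, Efna5 and Efnb1 (39.7% of all genes). The median ratio was -0.18 over the 9 genes and -0.03 over all tested genes. The plot of intensities by fraction and array shows the values behind these ratios.

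**Figure D1:**
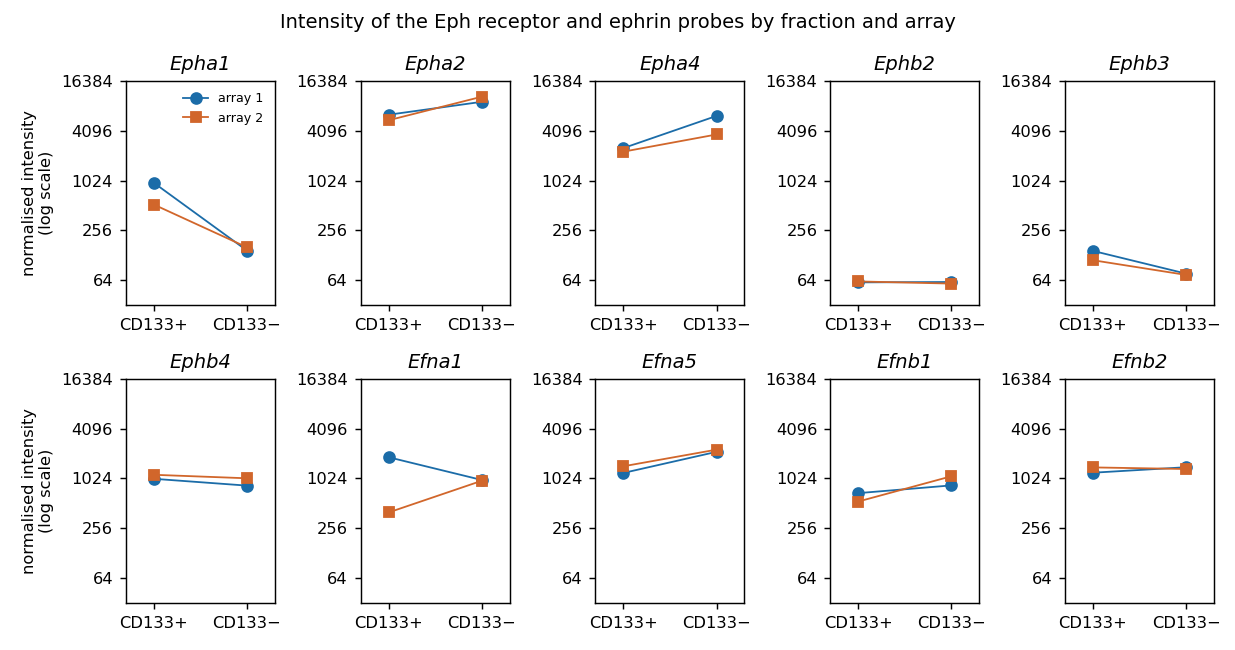
Normalised intensity (log scale) of 1 probe for each of the 10 genes in CD133-positive and CD133-negative cells; each line joins the fractions of 1 array. For Epha1 both CD133-positive values (965 and 527) lie above both CD133-negative values (146 and 160.4), for Efna1 the lines run in opposite directions, and Ephb2 was not well above background in any of the 4 samples.

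Among the A-class receptors, Epha1, an epithelial receptor of the skin and other linings, had the ratio of largest size. Its probe read 965 and 527 in CD133-positive cells on arrays 1 and 2, against 146 and 160.4 in CD133-negative cells. The fractions did not overlap, and the CD133-positive value was higher on array 1 than on array 2 while the CD133-negative values lay close together. The log2 ratio was 2.72 on array 1 and 1.72 on array 2, with a mean of 2.22 ± 0.29 (4.66-fold, 95% interval 1.41 to 3.03), and it did not pass (limma adjusted p = 0.064). This mean ratio stood at rank 152 from the top of all tested genes. Epha1 was the 1 gene of the 9 that was at least 2-fold different in the same direction on both arrays, which 4.61% of all tested genes were (2.5% higher and 2.11% lower). Its adjusted p ran from 0.010 to 0.53 over 14 alternative settings and was under 0.05 in 7 of them. Among them were the deposited processed signals, with a ratio of 2.83 (limma adjusted p = 0.048). These 7 are not independent, since the value table holds the same ratios as the processed signals. They also include median centring over all probes and over the tested probes, which called 66.2% and 26.8% of all tested genes. Another of them sets aside the pairing of the fractions.

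Epha4, which binds ephrins of both types, had 2 probes. The brighter one read 2534 and 2295 in CD133-positive cells, against 6206 and 3703 in CD133-negative cells. The fractions did not overlap, and the CD133-negative cells of array 1 stood highest. Its ratio was -1.29 on array 1 and -0.69 on array 2, with a mean of -0.99 ± 0.20 (1.99-fold lower, limma adjusted p = 0.091). The other probe read 1156 and 990.4 in CD133-positive cells, against 2282 and 1927 in CD133-negative cells. There the arrays lay closer, at -0.98 and -0.96, with a mean of -0.97 ± 0.13 (limma adjusted p = 0.068 over all probes tested). Both Epha4 probes thus gave a ratio close to -1 without passing.

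Epha2, the EphA receptor best known in epithelia and in carcinoma, read 6412 and 5499 in CD133-positive cells, against 9185 and 10588 in CD133-negative cells. The fractions did not overlap. The ratio was -0.52 on array 1 and -0.95 on array 2, with a mean of -0.73 ± 0.17 (1.66-fold lower), and it did not pass (limma adjusted p = 0.11). Epha1 stood on the opposite side of 0 from Epha2 and Epha4 on both arrays. A test of the difference between receptors was not made.

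Of the B-class receptors, Ephb2 had 2 probes, neither well above background in either fraction on either array. One read 60.4 and 62.0 in CD133-positive cells, against 61.0 and 58.4 in CD133-negative cells, and the other read 65.4 and 56.3 in CD133-positive cells, against 63.6 and 61.4 in CD133-negative cells. These values are at the level of background, so no fold is given and a difference between the fractions was not detectable.

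Ephb3 read 145 and 112 in CD133-positive cells, against 77.1 and 74.4 in CD133-negative cells, and the fractions did not overlap. Its ratio was 0.91 on array 1 and 0.59 on array 2, with a mean of 0.75 ± 0.16 (1.68-fold, limma adjusted p = 0.094). The spot was dim: before normalisation it read 106 and 86.8 in the CD133-positive channel over a local background of 48 and 50, and 98.0 and 83.8 in the CD133-negative channel over 55 and 54. Its ratio moved with the processing. It was 1.16 with an offset of 16 in place of 50 (limma adjusted p = 0.060), 0.78 with no background correction and 1.22 with median centring over the tested probes in place of loess. The deposited processed signals, which differ in background, detrending and dye normalisation together, gave 2.00 (limma adjusted p = 0.036). Over the 14 alternatives the limma adjusted p ran from 0.031 to 0.53 and was under 0.05 in 5 of them. These 5 were both median centrings, the intensity trend, the processed signals and the value table. They are not independent, since the value table holds the same ratios as the processed signals.

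Ephb4, the receptor of ephrin-B2 known from veins, read 1012 and 1132 in CD133-positive cells, against 837 and 1026 in CD133-negative cells. The fractions overlapped. The ratio was 0.27 on array 1 and 0.14 on array 2, with a mean of 0.21 ± 0.14 (95% interval -0.19 to 0.60, limma adjusted p = 0.41). A dimmer Ephb4 probe read 134 and 130.1 in CD133-positive cells, against 119.8 and 129 in CD133-negative cells, with a mean ratio of 0.09 ± 0.13.

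**Figure D2:**
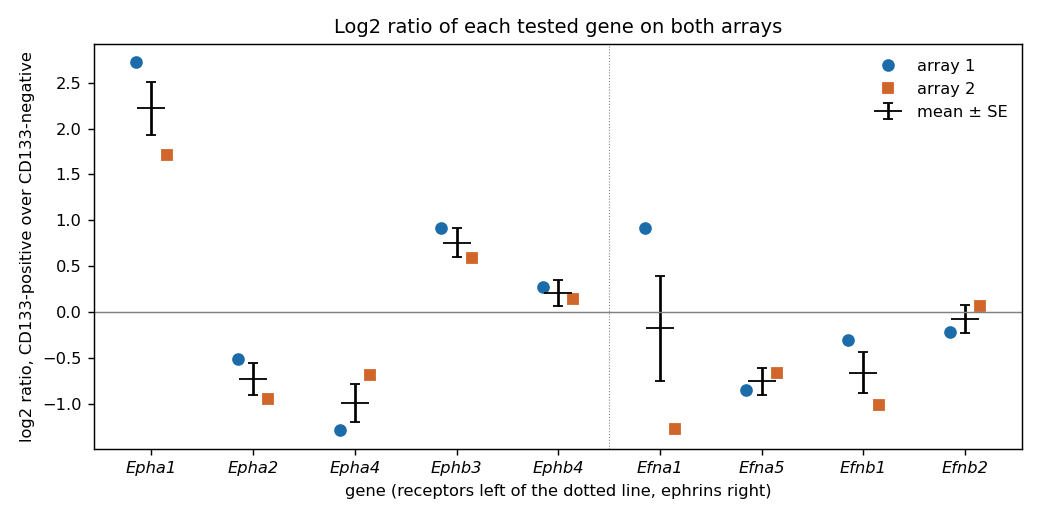
Log2 ratio (CD133-positive over CD133-negative) for the 9 tested genes on array 1 (circles) and array 2 (squares), with the mean ± moderated SE (bars). Epha1 lies at 2.72 and 1.72, Epha2, Epha4, Efna5 and Efnb1 lie below 0 on both arrays, and Efna1 lies at 0.91 and -1.27.

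Among the ephrins, Efna1, the ligand most often paired with EphA2, differed between the arrays. It read 1845 and 396 in CD133-positive cells, against 979 and 958 in CD133-negative cells. The CD133-negative values were close, and the CD133-positive value lay above them on array 1 and below them on array 2. The log2 ratio was 0.91 on array 1 and -1.27 on array 2, and the mean of -0.18 ± 0.57 (limma adjusted p = 0.88) describes neither. This gap of 2.19 between the arrays was reached by 41 tested genes, Efna1 included, or 0.269% of all, while the median tested gene had an SD of 0.18 between the arrays. In the authors' deposited table each array taken alone had a small p for this probe, 1.7e-05 on array 1 and 6.6e-09 on array 2, from an error model of 1 array that does not cover the spread between arrays. The scatter of the arrays shows Efna1 away from the diagonal.

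**Figure D3:**
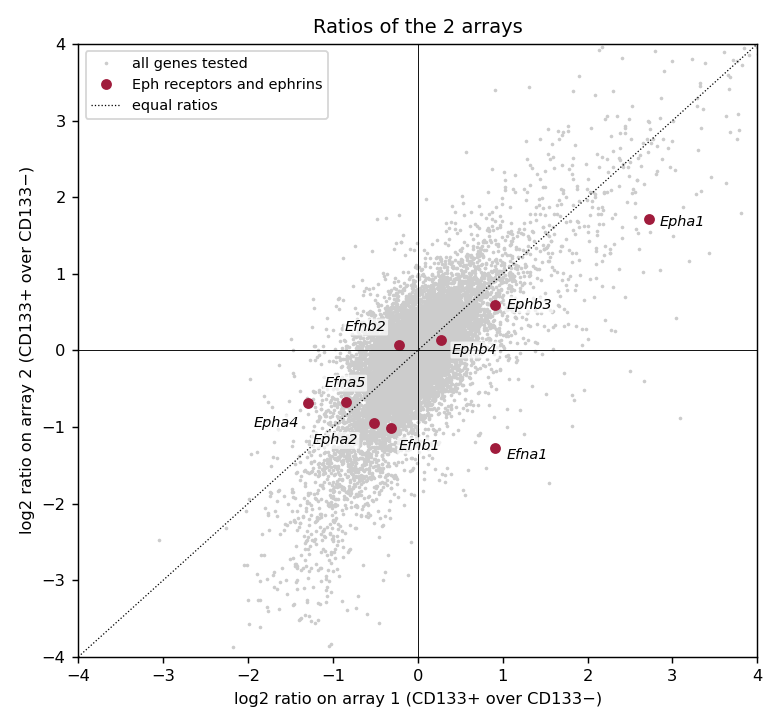
Log2 ratio (CD133-positive over CD133-negative) on array 1 against array 2 for all 15244 tested genes (grey, 48 lie outside the axes) and the 9 Eph and ephrin genes (red); the dotted line marks equal ratios. Efna1, at 0.91 and -1.27, lies in the lower right quadrant, and Epha1, at 2.72 and 1.72, lies in the upper right.

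Efna5, an ephrin known for repelling growing axons, had 2 probes annotated to different transcripts. The brighter one read 1190.3 and 1433 in CD133-positive cells, against 2143 and 2278 in CD133-negative cells, with no overlap. Its ratio was -0.85 on array 1 and -0.67 on array 2, with a mean of -0.76 ± 0.14 (1.69-fold lower, limma adjusted p = 0.085). The dimmer one read 80.4 and 77.2 in CD133-positive cells, against 85.6 and 91.7 in CD133-negative cells, with a mean ratio of -0.17 ± 0.14. The probes thus agreed in sign on both arrays and not in size, and the part that the dimness of the second probe has in this was not tested.

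Efnb1, which with Efnb2 signals into its own cell through a cytoplasmic tail, read 679 and 537 in CD133-positive cells, against 842 and 1085 in CD133-negative cells. The fractions did not overlap. The ratio was -0.31 on array 1 and -1.01 on array 2, with a mean of -0.66 ± 0.22 (1.58-fold lower, limma adjusted p = 0.17). Efnb2, the ligand of EphB4 known from arteries, read 1198 and 1389 in CD133-positive cells, against 1397 and 1329 in CD133-negative cells, and the fractions overlapped. Its ratio was -0.22 on array 1 and 0.06 on array 2, with a mean of -0.08 ± 0.15 (95% interval -0.51 to 0.35, limma adjusted p = 0.80). A second Efnb2 probe, dimmer, had a mean ratio of -0.04 ± 0.14, also with opposite signs on the arrays.

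The order of the mean ratios, from the highest, was Epha1, Ephb3, Ephb4, Efnb2, Efna1, Efnb1, Epha2, Efna5 and Epha4. Epha1 lay above Ephb3 on each array, as did Ephb3 above Ephb4, and the intervals of Efnb1, Epha2, Efna5 and Epha4 overlapped one another. Efna1 had no settled place, since its ratio on array 1 was close to that of Ephb3 and on array 2 lay below that of Epha4.

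Of 12 other Eph and ephrin genes, 7 were tested, and none passed (limma). At an unadjusted p under 0.05 there were 2, both below 0, against 16% of all tested genes in that direction. The median ratio of the 7 was -0.12. Epha3, Epha6, Epha8, Epha10 and Ephb1 had no probe well above background on both arrays in either fraction. Epha7, an A-class receptor, read 207 and 197 in CD133-positive cells, against 515 and 842 in CD133-negative cells, a ratio of -1.71 ± 0.24 (limma adjusted p = 0.066). Ephb6, a receptor without kinase activity, read 125 and 98.9 in CD133-positive cells, against 186 and 298 in CD133-negative cells, a ratio of -1.08 ± 0.29 (limma adjusted p = 0.12). Efna3 was at -0.63 ± 0.23, and Epha5, at 0.33 ± 0.14, did not stand well above background in the CD133-negative fraction. Over all 22 genes of the family, 16 were tested. Of these, 8 lay below 0 on both arrays and 5 above 0 on both, against 39.7% and 32.6% of all tested genes.

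Partners of forward signalling comprised 40 genes, of which 37 were tested and none passed (limma). At an unadjusted p under 0.05 there were 5 above and 11 below 0, against 11.9% and 16% of all tested genes. The median ratio of the 37 was -0.19. On both arrays 9 lay above and 21 below 0, against 32.6% and 39.7% of all tested genes. Kalrn, an exchange factor that links EphB receptors to Rac, was at 1.25 ± 0.23, and Arhgef16, an exchange factor that binds EphA2, was at 0.97 ± 0.14 (limma adjusted p = 0.085 and 0.066). Vav3, an exchange factor recruited by activated Eph receptors, was at -1.52 ± 0.26, and Chn1, a GTPase-activating protein for Rac downstream of EphA4, was at -0.92 ± 0.18 (limma adjusted p = 0.082 and 0.087). Partners of reverse signalling and shedding comprised 14 genes, of which 12 were tested and none passed (limma), with a median of 0.10. At an unadjusted p under 0.05, 2 lay above and 1 below 0, against 11.9% and 16% of all tested genes. Pard6b, a polarity protein of the complex that ephrin-B1 binds, was at 1.05 ± 0.15, and Grip1, a scaffold of B-type ephrins, was at -1.24 ± 0.20 (limma adjusted p = 0.067 and 0.077). Psen2, a subunit of the protease that cuts Eph and ephrin stubs in the membrane, was at 0.66 ± 0.15. Adam17, a sheddase of the cell surface, was at 0.36 ± 0.14, and Adam10, which cleaves ephrins from the surface, was at -0.17 ± 0.14.

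Of 15 Wnt and beta-catenin target genes, the setting in which Ephb2 and Ephb3 are best known, 9 were tested, with a median ratio of -0.95. On both arrays 6 lay below 0, against 39.7% of all tested genes, and 1 lay above 0, against 32.6%. Apcdd1, a Wnt inhibitor, fell to 472 and 370.4 in CD133-positive cells, against 1495 and 1651 in CD133-negative cells (ratio -1.91 ± 0.18, limma adjusted p = 0.043). The transcription factors Tcf7 and Sox9, at -1.50 ± 0.30 and -1.38 ± 0.36, the adhesion receptor Cd44, at -1.13 ± 0.25, and the cell cycle gene Ccnd1, at -0.95 ± 0.19, did not pass. In CD133-positive cells Tcf7 and Sox9 each stood well above background on only 1 array. Axin2, Lgr5, Lef1, Nkd1, Notum and Sp5 were, like Ephb2, not well above background on both arrays in either fraction. Ascl2 lay above 0 on both arrays, at 0.14 ± 0.14, and Myc had opposite signs on the arrays, as did Znrf3. Ephb3, at 0.75, lay on the other side of 0 from the 6 genes below 0 on both arrays, and this difference was not tested.

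Epithelial keratins checked the labelled cell type. Krt8, Krt18, Krt19 and Cdh1 were well above background in both fractions, while Epcam, Cldn4 and Esrp1 were not in either. Of 14 epithelial markers 11 were tested, and the tight junction gene Ocln rose in CD133-positive cells (1.81 ± 0.16, limma adjusted p = 0.036). At an unadjusted p under 0.05 there were 3 above and 3 below 0, against 11.9% and 16% of all tested genes. Those above were Ocln, the keratin Krt7 (1.32 ± 0.30) and Elf3 (1.03 ± 0.14), of which only Ocln passed. Those below were Krt8 (-0.78 ± 0.14), Krt18 (-0.54 ± 0.15) and Krt19 (-0.79 ± 0.15), none of which passed. The keratins thus did not all go the same way. The summed intensity of the 11 was 209856 to 234722 in CD133-positive cells, against 325305 to 339065 in CD133-negative cells. Most of this sum came from Krt8, Krt18 and Krt19 (82071, 83154 and 44245 in CD133-positive cells of array 1). It therefore does not describe the 11 markers as a set. Their median ratio was 0.29, with 6 above and 4 below 0 on both arrays. The median gene, Ehf, did not stand well above background in the CD133-negative fraction, and neither did Cldn7, also above 0. Ephb4 and Efnb2 are also known from vessels, so endothelial markers stand beside them. Of 12, 5 were tested, and Sox17 (4.27 ± 0.14), Vwf (3.75 ± 0.15) and Cdh5 rose in CD133-positive cells (limma adjusted p = 0.0094, 0.012 and 0.042), Cdh5 with no signal well above background in the CD133-negative fraction. Esam, an adhesion molecule of endothelial junctions, was at -1.07 ± 0.22 (limma adjusted p = 0.090), below 0 on both arrays. Egfl7 was at 0.10 ± 0.17 with opposite signs. At an unadjusted p under 0.05 there were thus 3 above and 1 below 0, against 11.9% and 16% of all tested genes. The summed intensity of the 5 was 10470.3 to 12339 in CD133-positive cells, against 2669 to 3026 in CD133-negative cells. Most of this sum came from Sox17 in CD133-positive cells (6245 and 7709) and from Egfl7 in CD133-negative cells (1950 and 2188). It therefore does not describe the 5 markers as a set. Pecam1, Kdr, Tek, Tie1, Emcn, Cldn5 and Sox18 were not well above background on both arrays in either fraction. No blood, fibroblast and muscle, or neural marker passed, among 7, 5 and 2 tested of 12, 12 and 10 listed (limma). Each list had 1 gene at an unadjusted p under 0.05, against 27.9% of all tested genes. These were Csf1r (-0.87 ± 0.14), Col1a1 (-1.25 ± 0.18) and Map2 (-0.93 ± 0.14), all 3 below 0. In CD133-positive cells Csf1r stood well above background on only 1 array. The summed intensity was 1911 to 2085 in CD133-positive cells, against 1893 to 2085 in CD133-negative cells, for blood markers. It was 9034 to 9672 in CD133-positive cells, against 8234 to 9143 in CD133-negative cells, for fibroblast and muscle markers. For neural markers it was 4541 to 4944 in CD133-positive cells, against 4986 to 5018 in CD133-negative cells. A single probe made up most of each sum. In CD133-positive cells of array 1 these were Cd14 (1452), Acta2 (8238) and Mbp (4386). The part of these markers in the Eph and ephrin values was not tested.

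**Figure D4:**
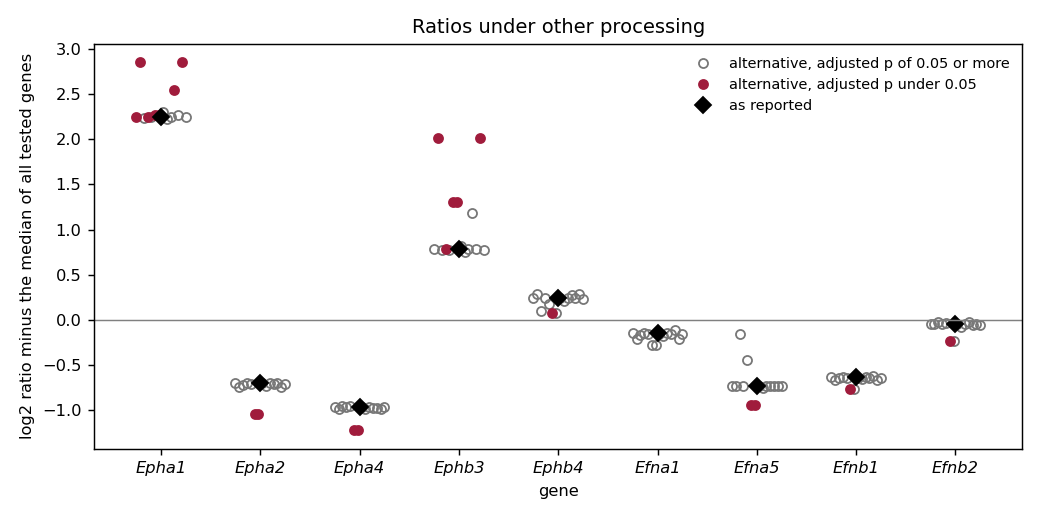
Log2 ratio of each tested gene minus the median of all tested genes, as reported (diamonds) and under 14 alternative settings (circles, filled where the limma adjusted p was under 0.05). No gene crosses 0 on this scale, and Ephb3 spreads from 0.76 to 2.02. Settings that change only the test repeat the reported ratio. The p-values test the ratio against 0, not against the median, so median centring over all probes, which puts the median at -0.74, fills the circle of Ephb4 and 7 more genes.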

How the data were processed

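Total RNA of sorted CD133-positive and CD133-negative GIF-5 cells was measured on 2 two-colour Agilent arrays of 45018 spots. Spot and background intensity were read by Agilent Feature Extraction 9.5.3.1 and deposited unnormalised, per the file headers. The deposited processed intensity was background-subtracted, detrended and dye-normalised by that program, per the file headers. A log10 ratio of processed Cy5 over processed Cy3 signal was deposited for each spot, per the file headers, and the value table held the same log10 ratios, with a median of 0. The deposited p-value of a spot comes from the program's error model for 1 array, per the file headers. Spots well above background numbered 23694 and 23498 for CD133-positive RNA and 25213 and 24648 for CD133-negative RNA, with 0 saturated. The number of arrays limits the precision.

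Background was removed by normexp (offset 50), and loess was run within each array with control spots at weight 0, in limma 3.58.1 (R 4.3.3). Spots of a probe were averaged, and log10 ratios from the deposited files were turned to log2 and to CD133-positive over CD133-negative. Intensities per fraction were additionally scaled between arrays (Aquantile). A probe was tested if well above background in Cy3 or in Cy5 on both arrays and free of outlier flags; a gene was represented by its brightest tested probe. Names came from accessions (22951 probes), symbols or synonyms (9768) in a RefSeq table of GRCm38.p6, or the files (8455). The test was limma's fit of the mean log2 ratio with empirical Bayes moderation, two-sided, and p-values were adjusted by Benjamini-Hochberg across all tested genes, with a threshold of 0.05; each array was 1 replicate, leaving 1 residual degree of freedom, to which moderation added 2.88. A bound ("at least") set the mean of the brighter fraction against, per array, the higher of the dim probe's own signal and the lowest signal well above background. The fit was run on simulated ratios with known changes, which checks its working and does not measure the error rate in these data.

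The members and lists were chosen with earlier results of these data known. Named genes were all members with every probe. From each pathway list they were the genes that passed plus up to 4 of the largest ratios with the same sign on both arrays. Adam10, Ascl2, Myc, Znrf3, Esam, Egfl7, Elf3, Ehf, Cldn7 and the keratins were named after their values were seen. So were Cd14, Csf1r, Acta2, Col1a1, Mbp and Map2.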

Additional observations from a re-analysis of the deposited data

How the results depend on the processing

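The fit called 257 genes, 83.7% of them higher, and 0 of the 9 Eph and ephrin genes. Genes called numbered 571 with an offset of 16 (71.6% higher), 10094 with median centring over all probes (4.8%), 4093 with median centring over the tested probes (50.2%), 508 with scaling between arrays (62.4%), 462 with the processed signals and the same with the value table, 32 with no filter on dim probes, 155 with the dimmest probe, 828 with an intensity trend, 0 without moderation and 1059 with the 4 channels as separate samples. Without background correction 71.8% of the calls were higher. Of the 9 genes, median centring over all probes called 8 and over the tested probes 5, the processed signals 2, as did the value table, the intensity trend 2, the offset of 16 called 1 (Epha1) and the 4 channels 1 (Epha1). Median centring over all probes moved the median of all genes to -0.74. Ephb4 turned to -0.67 there and to -0.0066 with centring over the tested probes. Relative to the median it was 0.07 in both. No Eph or ephrin gene changed sign relative to the median in 14 alternatives. The intensity trend, the fit without moderation and the 4 channels could not change a sign, since they keep the reported ratios. The value table repeats the processed signals. Efna5 was at -0.17 with its dimmest probe. Genes at least 2-fold different on both arrays numbered 702, against 3803 and 1070 with the median centrings and 1537 with the processed signals or value table; on 1 array alone they numbered 966 to 1839, and Eph and ephrin genes 2 to 3. On 1 array alone Efna1 ran from -1.27 to 0.91 and Efnb2 from -0.22 to 0.06. Relative to the median of that array, Efna1 ran from -1.23 to 0.93 and Efnb2 from -0.20 to 0.11, so both changed sign there. Each array pairs the fractions, so the fit with no replicate block is the one of 4 channels, where Epha1 had a limma adjusted p of 0.034 and no other Eph or ephrin gene passed. Dim spots limit Ephb2 and Ephb3.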
